A study of Homo sapiens with 6 samples.

Results

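The genes described here encode subunits of the Polycomb machinery and of the BCOR corepressor complex. They are EZH1, EZH2, EED, SUZ12 and JARID2 of Polycomb repressive complex 2 (PRC2), and BCOR, BCORL1, KDM2B, PCGF1 and RNF2 of the BCOR-containing form of Polycomb repressive complex 1 (PRC1). Members were taken by gene symbol from a count table of 28307 genes, and all 10 of the 10 symbols were found and had enough counts to be tested. The libraries came from OCI-AML3, an established line grown from human acute myeloid leukaemia, whose nucleophosmin gene carries the NPM1c mutation, which moves the protein to the cytoplasm. The labels give the genotype of every sample as WT. All libraries share a lipid transfection with an siRNA at 10 nM, RNA taken after 3 days and a single batch label. The siControl group (control siRNA) held 3 libraries and the siNPM1c group (siRNA against mutant NPM1) held 3, all from 1 cell line, and the labels do not say that replicates were separate cultures. The p-values therefore reflect the scatter of these 6 libraries alone, some or all of which may be technical.

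PRC2 places methyl groups on lysine 27 of histone H3, the mark of silenced developmental genes. EZH2 or its relative EZH1 is the catalytic subunit, EED and SUZ12 are the scaffold without which the enzyme is inactive, and JARID2 is an accessory subunit that guides the complex to its targets. In the BCOR complex, RNF2 is the ubiquitin ligase for histone H2A, PCGF1 is its partner RING protein, KDM2B brings the complex to unmethylated CG-rich DNA, and BCOR or BCORL1 forms the corepressor part. Loss-of-function mutations of BCOR, BCORL1, EZH2, SUZ12 and other genes of these complexes recur in myeloid neoplasms, which is why they are followed in leukaemia models.

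Library totals ran from 15075235 to 25190122 counts, of which ribosomal RNA took 63.0% to 64.5% in siControl and 69.4% to 71.1% in siNPM1c, so that protein-coding genes held 3414688 to 6695652 counts. NPM1, the target, fell from 50.1 ± 0.985 to 23.2 ± 1.03 CPM (SD, n = 3), with mutant and wild-type transcripts counted together. CPM are counts scaled to a common library size after TMM normalization, under which most genes are treated as level. Of the 10 myeloid blast markers 8 were tested and 6 rose, beside 21.3% of all genes tested. The median of the 8 was 0.27 log2 (-0.20 with library sizes alone). The summed level of the 10 was 518 to 537 CPM in siControl and 672 to 683 CPM in siNPM1c. The stem cell markers KIT and CD34 were too low to be tested. Marker sums of T and NK cells (7 genes), erythroid cells (6), stroma (6) and epithelium (5) reached at most 1.72 CPM in any library, and CD3D and HBB were among the genes at 0. The 6 B-cell markers summed to 1.45 to 2.56 CPM in siControl and 4.29 to 5.20 CPM in siNPM1c, a difference carried by PAX5 (0.644 ± 0.223 against 2.99 ± 0.229 CPM, SD, n = 3). The part of these markers in the results below was not tested.

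Of the 10 Polycomb and BCOR genes, SUZ12 and BCOR fell, JARID2 and KDM2B rose, and the other 6 did not pass the test. A gene was called at a Benjamini-Hochberg adjusted p under 0.05 in the quasi-likelihood test of edgeR, adjusted over all 12938 genes tested. In these bulk libraries, fewer cells of a kind and less RNA per cell cannot be told apart. The 4 calls are 40% of the members, against 42.7% of all genes tested, with 21.3% of all genes called higher and 21.4% called lower. The share of members called was therefore near the background. The groups did not overlap in CPM for the same 4 members, against 49.2% of all genes tested. The median log2 fold change of the 10 members was -0.12, beside -0.01 over all genes tested.

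**Figure D1:**
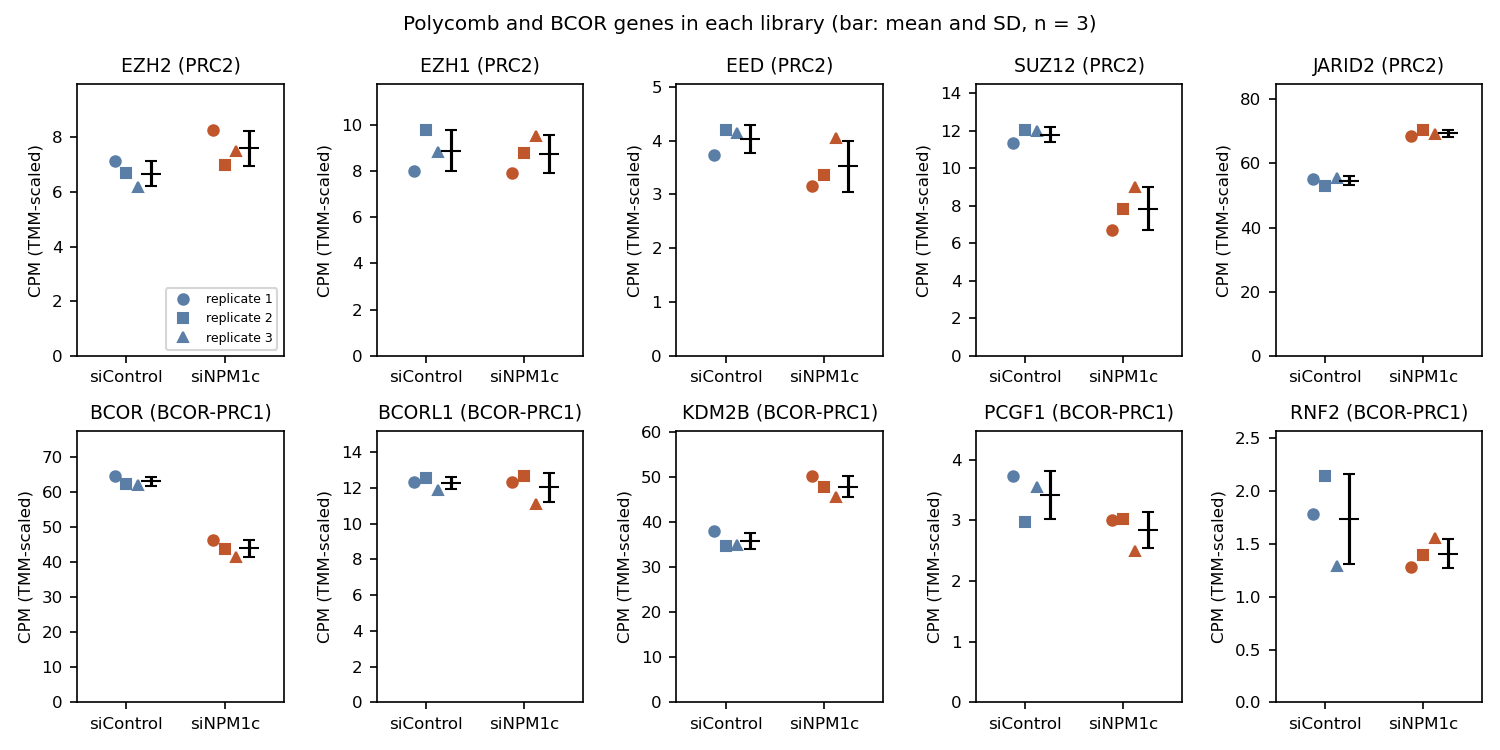
CPM (TMM-scaled, y axis, from 0) of each gene in the 3 siControl (blue) and 3 siNPM1c (orange) libraries, with marker shape for replicate number and the mean and SD in black. SUZ12 and BCOR lie lower and JARID2 and KDM2B lie higher in all 3 siNPM1c libraries, and for the other 6 genes the groups overlap.

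The 4 genes that changed are shown by the stretch around their transcription start, because KDM2B itself reads CG dinucleotides in such stretches. Sequences are from RefSeq on GRCh38.p14, 5′ to 3′ on the strand of the gene, from 250 bases before the start to base 30 of the transcript, with each CG in capitals. Where RefSeq lists several starts, the one with most CG is shown. All 10 members matched the RefSeq table, with 17 starts in all.
BCOR: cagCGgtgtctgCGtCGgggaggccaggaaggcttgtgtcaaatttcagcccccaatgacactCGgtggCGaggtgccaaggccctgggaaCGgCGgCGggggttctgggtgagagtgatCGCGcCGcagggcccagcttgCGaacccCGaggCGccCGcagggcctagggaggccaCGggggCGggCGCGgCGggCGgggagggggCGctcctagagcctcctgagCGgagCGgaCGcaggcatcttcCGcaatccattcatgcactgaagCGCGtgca
SUZ12: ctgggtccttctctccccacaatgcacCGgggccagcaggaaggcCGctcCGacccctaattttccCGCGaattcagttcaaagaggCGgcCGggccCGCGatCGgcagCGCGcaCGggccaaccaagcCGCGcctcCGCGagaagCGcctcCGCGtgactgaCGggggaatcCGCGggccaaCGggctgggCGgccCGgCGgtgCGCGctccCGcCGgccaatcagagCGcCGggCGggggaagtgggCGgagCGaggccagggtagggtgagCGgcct
JARID2: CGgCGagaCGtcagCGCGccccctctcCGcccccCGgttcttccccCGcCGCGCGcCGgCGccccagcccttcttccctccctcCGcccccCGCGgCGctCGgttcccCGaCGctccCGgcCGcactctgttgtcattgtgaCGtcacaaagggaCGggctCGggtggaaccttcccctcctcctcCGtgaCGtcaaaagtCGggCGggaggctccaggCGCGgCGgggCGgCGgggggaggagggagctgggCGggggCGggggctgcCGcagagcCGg
KDM2B: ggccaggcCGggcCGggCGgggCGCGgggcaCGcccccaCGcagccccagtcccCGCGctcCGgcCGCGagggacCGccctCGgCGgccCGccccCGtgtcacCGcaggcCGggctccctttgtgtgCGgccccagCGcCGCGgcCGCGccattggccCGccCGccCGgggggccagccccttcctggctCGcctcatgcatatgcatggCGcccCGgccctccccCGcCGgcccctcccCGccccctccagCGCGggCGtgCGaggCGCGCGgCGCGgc
The BCOR stretch (chrX:40146604-40146883, minus strand) holds 28 CG, that of SUZ12 (chr17:31936757-31937036, plus strand) 37, that of JARID2 (chr6:15248605-15248884, plus strand) 38 and that of KDM2B (chr12:121467349-121467628, minus strand) 43. The median over 35116 RefSeq start stretches of the same 280 bases was 13, and 22.2% of them held as many as that of BCOR and 2.91% as many as that of KDM2B. These are the starts with most CG. The other BCOR start held 6 CG, the other JARID2 start 23 and the other KDM2B starts 32, 15 and 14, while SUZ12 has 1 start in the table. Among the members that did not pass the test, the count ran from 13 for EED and PCGF1 to 45 for EZH2 and BCORL1, each at its start with most CG. The E2F motif, searched as TTTCGCGC or TTTGGCGC on both strands, was found in 1 of the 17 start stretches of members, at EZH2, and in 1.09% of all start stretches. The CCAAT motif, on both strands, was found in 7 of the 17 (at BCOR, EED, EZH2, JARID2, KDM2B and SUZ12) and in 33.6% of all stretches. GGGCGG, on both strands, was found in 14 of the 17, at every member but EED, and in 44.1% of all stretches. These are matches of letters and were not tested for binding.

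The catalytic subunits of PRC2 did not pass the test. EZH2 (Entrez gene 2146, chromosome 7, 148807383 to 148884291) stood at 7.12, 6.70 and 6.19 CPM in the siControl libraries and at 8.27, 6.99 and 7.50 CPM in the siNPM1c libraries. The groups overlapped, and the log2 fold change was 0.17 ± 0.12 (SE) with an adjusted p of 0.236 by edgeR. EZH2 rests on 110 to 185 counts a library. EZH1 (Entrez gene 2145, chromosome 17, 42700275 to 42745040), the form that prevails in cells that divide little, stood at 8.01, 9.78 and 8.83 CPM against 7.90, 8.77 and 9.52 CPM. Its groups overlapped throughout, with a log2 fold change of -0.04 ± 0.10 (SE, adjusted p 0.812 by edgeR). After a correction of each library for GC content, EZH2 had a log2 fold change of 0.28 ± 0.12 (SE) and passed the test (adjusted p 0.0443 by edgeR), and with library sizes alone it turned to -0.30.

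The scaffold subunits differed from each other. SUZ12 (Entrez gene 23512, chromosome 17, 31937007 to 32001038), whose start stretch is printed above, had 204, 333 and 223 counts in siControl and 89, 164 and 133 in siNPM1c. This gave 11.3, 12.1 and 12.01 CPM against 6.69, 7.86 and 8.98 CPM. Every siNPM1c library lay below every siControl library, and SUZ12 was 1.5-fold lower, with a log2 fold change of -0.59 ± 0.10 (SE, adjusted p 1.38e-07 by edgeR). SUZ12 transcripts have a low GC content (38.4%, against a median of 50.9% over the genes tested), and with the GC correction the fall was smaller, at -0.33 ± 0.10 (SE, adjusted p 0.00378 by edgeR). EED (Entrez gene 8726, chromosome 11, 86244753 to 86287615), the subunit that binds the finished mark, stood at 3.73, 4.20 and 4.15 CPM against 3.16, 3.35 and 4.05 CPM. The third siNPM1c library lay within the siControl range, and EED did not pass the test (-0.20 ± 0.16 log2, SE, adjusted p 0.315 by edgeR). EED transcripts are 36.9% GC, and with the GC correction the value was 0.09 ± 0.16.

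SUZ12 has a partial copy on the same chromosome, the transcribed pseudogene SUZ12P1, which was looked at after its values had been seen. It held 250, 419 and 260 counts in siControl and 231, 373 and 268 in siNPM1c, more than SUZ12 in every library. SUZ12P1 moved the other way, from 14.4 ± 0.711 to 17.8 ± 0.370 CPM (SD, n = 3), by 0.30 ± 0.08 log2 (SE, adjusted p 0.000588 by edgeR), but -0.17 with library sizes alone. The ratio of SUZ12P1 to SUZ12 counts went from 1.23, 1.26 and 1.17 to 2.596, 2.27 and 2.02. How reads that fit both genes were shared is not given in the sources used here, so the size of the SUZ12 fall is uncertain.

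JARID2 (Entrez gene 3720, chromosome 6, 15246069 to 15522042) rose. It stood at 55.2, 53.0 and 55.6 CPM in siControl and at 68.5, 70.5 and 69.2 CPM in siNPM1c, so that the lowest siNPM1c library exceeded the highest siControl library. JARID2 was 1.28-fold higher (0.35 ± 0.04 log2, SE, adjusted p 1.22e-14 by edgeR), and it was 0.35 ± 0.04 with the GC correction. This direction is relative to the bulk of genes. With library sizes alone, where ribosomal counts enter the depth, the median of all genes moved to -0.48 and JARID2 was called lower, at -0.12 ± 0.05 (SE, adjusted p 0.0183 by edgeR).

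Among the genes of the BCOR complex, BCOR itself (Entrez gene 54880, chromosome X, 40051246 to 40177277) fell. Its counts were 1161, 1724 and 1155 in siControl and 618, 916 and 614 in siNPM1c, which gave 64.6, 62.5 and 62.2 CPM against 46.5, 43.9 and 41.5 CPM. The gap between the groups was several times the spread within either. BCOR was 1.44-fold lower, with a log2 fold change of -0.52 ± 0.04 (SE, adjusted p 7.34e-24 by edgeR), and over the 6 fits that each left out 1 library it ranged from -0.55 to -0.48. BCORL1 (Entrez gene 63035, chromosome X, 129980313 to 130058071), the paralogue that can take the place of BCOR, stood at 12.3, 12.5 and 11.9 CPM against 12.3, 12.6 and 11.1 CPM. Its groups overlapped, and it did not pass the test (-0.03 ± 0.09 log2, SE, adjusted p 0.844 by edgeR).

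KDM2B (Entrez gene 84678, chromosome 12, 121408461 to 121582279), the CG-binding subunit and also a demethylase of histone H3 lysine 36, rose. It stood at 37.9, 34.7 and 35.0 CPM in siControl and at 50.2, 47.8 and 45.5 CPM in siNPM1c. The groups were separate, and KDM2B was higher by 0.42 ± 0.05 on the log2 scale (SE, adjusted p 6.02e-14 by edgeR). Library sizes alone gave -0.05 ± 0.05 and no call. In the GENCODE 29 annotation 3.22% of its exon bases overlap RNF34 on the opposite strand. PCGF1 (Entrez gene 84759, chromosome 2, 74505043 to 74507695) stood at 3.73, 2.97 and 3.55 CPM against 3.01, 3.02 and 2.50 CPM, with overlapping groups (-0.24 ± 0.18 log2, SE, adjusted p 0.281 by edgeR). RNF2 (Entrez gene 6045, chromosome 1, 185045558 to 185102603) was the lowest member, with 24 to 59 counts in siControl and 17 to 29 in siNPM1c. Its levels were 1.78, 2.14 and 1.29 CPM against 1.28, 1.39 and 1.55 CPM. The groups overlapped, and RNF2 did not pass the test (-0.33 ± 0.25 log2, SE, adjusted p 0.280 by edgeR).

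**Figure D2:**
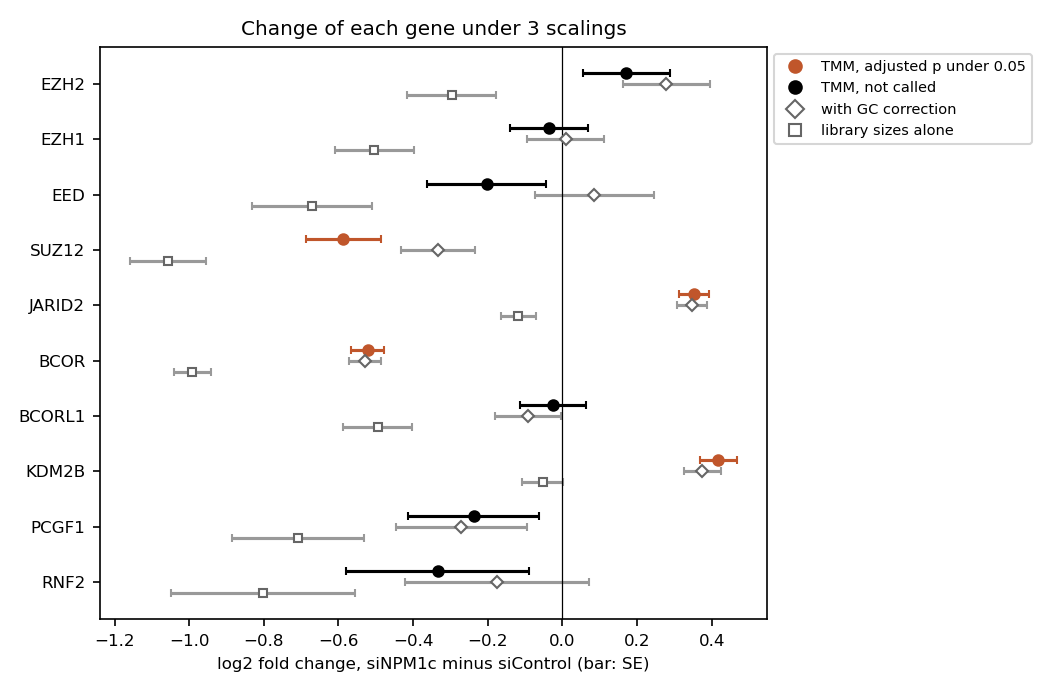
Log2 fold change (x axis, siNPM1c minus siControl, bar: SE) of each gene under TMM scaling (filled, orange where called), with the GC correction (diamonds) and with library sizes alone (squares). BCOR and SUZ12 are below 0 under all 3, while JARID2 and KDM2B are above 0 under TMM and the GC correction and below 0 under library sizes alone.

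With library sizes alone 9 of the 10 members were called, all but KDM2B and all lower, where 75.4% of all genes tested were called, 71.5% lower and 3.9% higher. With the GC correction 5 members were called, the same 4 and EZH2, against 39.7% of all genes tested (20.9% higher, 18.8% lower). The 2 calls whose direction held under every scaling were those of BCOR (-0.99 with library sizes alone) and SUZ12 (-1.06). Leaving out TMM lowered every gene by about the same amount, JARID2 from 0.35 to -0.12 and BCOR from -0.52 to -0.99. Genes that fell under TMM therefore had to stay lower, and small rises had to turn. The contrast does not make the calls of BCOR and SUZ12 firmer than those of JARID2 and KDM2B.

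Ratios of raw counts within a library do not depend on how libraries are scaled, but they carry no GC correction. That correction made the fall of SUZ12 smaller (-0.33 against -0.59 log2) and left JARID2 at 0.35 and SUZ12P1 at 0.30. The ratios to SUZ12 were not computed with it. Of 5 ratios, those of EZH1 to EZH2 and BCORL1 to BCOR were planned, and those of KDM2B to BCOR, JARID2 to SUZ12 and SUZ12P1 to SUZ12 were chosen after the values had been seen. KDM2B to BCOR was 0.587, 0.556 and 0.563 in siControl and 1.08, 1.09 and 1.10 in siNPM1c, a 1.91-fold higher ratio. The counts of the 2 genes were thus nearly equal in every siNPM1c library, but KDM2B has the longer exon sequence. Per kilobase of exon the ratio was 0.357 ± 0.0103 in siControl and 0.683 ± 0.00578 in siNPM1c (SD, n = 3), so BCOR stayed the higher. BCORL1 to BCOR went from 0.191, 0.201 and 0.191 to 0.265, 0.288 and 0.267, 1.41-fold higher. JARID2 to SUZ12 went from 4.86, 4.39 and 4.63 to 10.2, 8.98 and 7.71, 1.93-fold higher. For these ratios and that of SUZ12P1 to SUZ12 the groups were separate. A two-sided exact permutation test on log2 ratios gave 0.1 for each, the smallest p that 3 against 3 libraries allow (0.125 after Benjamini-Hochberg adjustment over the 5 ratios). For the ratios chosen after the values had been seen, that choice fixed this outcome, so p tests nothing there. EZH1 to EZH2 was 1.12, 1.46 and 1.43 against 0.955, 1.253 and 1.27, with overlapping groups and an exact permutation p of 0.3. A change of ratio shows that 2 genes changed unequally, not which of them changed.

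**Figure D3:**
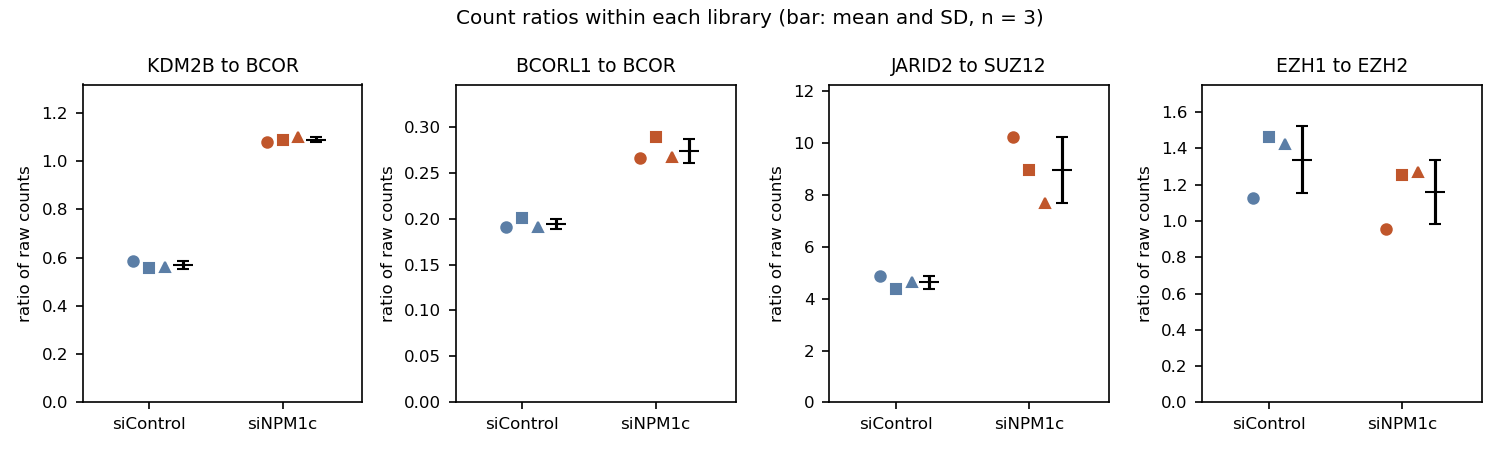
Ratio of raw counts of 2 genes (y axis, from 0) in each siControl (blue) and siNPM1c (orange) library, with marker shape for replicate number and the mean and SD in black. KDM2B to BCOR, BCORL1 to BCOR and JARID2 to SUZ12 are higher in all 3 siNPM1c libraries, and EZH1 to EZH2 overlaps.

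Levels of different genes were compared per kilobase of GENCODE 29 exon sequence, the annotation of the authors' counting not being given in the sources used here. In siControl the order was JARID2 with 9.08 ± 0.233 CPM per kb (SD, n = 3), BCOR with 7.38 ± 0.152, KDM2B with 2.63 ± 0.130, SUZ12 with 1.803 ± 0.0612, BCORL1 with 1.53 ± 0.0407, EZH2 with 1.48 ± 0.102, PCGF1 with 1.30 ± 0.151, EZH1 with 1.27 ± 0.127, EED with 0.574 ± 0.0371 and RNF2 with 0.426 ± 0.104. Neighbours from BCORL1 to EZH1 in this order overlapped between libraries, and the other neighbours did not. JARID2 thus stood above the other 4 PRC2 members and BCOR above the other 4 members of its complex. RING1, which is not a member, stood at 7.59 ± 0.753 CPM per kb in siControl (SD, n = 3). In siNPM1c, JARID2 (11.5 ± 0.173 CPM per kb, SD, n = 3), BCOR (5.14 ± 0.294) and KDM2B (3.51 ± 0.171) kept the first places. SUZ12 (1.198 ± 0.175) moved from the fourth to the seventh place, where it overlapped with EZH1 and PCGF1.

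The other genes of the Polycomb system were taken from 6 lists of 70 genes. Of the 66 tested, 21 rose and 15 fell, 36 of 66 or 54.5%, beside the 42.7% of all genes tested. Their median log2 fold change was 0.07, and -0.40 under library sizes alone. Among 9 tested accessory and associated genes of PRC2, 1 rose and 3 fell, with a median of -0.08, against 0.048 with the GC correction and -0.55 with library sizes alone. RBBP7, a histone-binding subunit, fell from 8.62 ± 1.01 to 5.50 ± 0.375 CPM (SD, n = 3), and LCOR, whose locus also encodes a PRC2-binding protein, fell by 0.37 (SE 0.08) on the log2 scale. EPOP, which links PRC2 to elongin, rose by 0.34 ± 0.07 log2 (SE), a value of -0.13 under library sizes alone. Both tested demethylases of H3 lysine 27 were called higher, with directions that turned under library sizes alone. KDM6A rose from 9.97 ± 0.282 to 12.5 ± 0.651 CPM (0.33 ± 0.09 log2, SE, and -0.14 under library sizes alone). KDM6B rose by 0.12 ± 0.05 log2 (SE, adjusted p 0.0308 by edgeR). That call was lost with the GC correction (0.04, adjusted p 0.527) and without siControl replicate 2 (0.12, adjusted p 0.0739), siControl replicate 3 (0.12, adjusted p 0.0603), siNPM1c replicate 1 (0.10, adjusted p 0.143) or siNPM1c replicate 3 (0.12, adjusted p 0.0724), and it was -0.34 under library sizes alone. Upper-quartile factors (adjusted p 0.0620), no filter beyond 1 count (0.135) and DESeq2 (0.109) also lost it.

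Among 15 other subunits of canonical PRC1, the form that reads the PRC2 mark through CBX proteins, 6 rose and 1 fell, with a median of 0.21, against -0.27 with library sizes alone. The share called was 46.7%, beside 42.7% of all genes tested. PHC2, a polymerising subunit, rose by 0.21 ± 0.05 log2 (SE), and was -0.27 under library sizes alone. RING1, the relative of RNF2, was called higher, from 13.8 ± 1.37 to 16.1 ± 0.871 CPM (SD, n = 3), with overlapping groups. Its log2 fold change was 0.22 ± 0.08 (SE, adjusted p 0.0228 by edgeR), and its values under other settings are not reported here. The reader gene CBX2 fell from 12.1 ± 0.407 to 9.20 ± 0.130 CPM (SD, n = 3). BMI1, a RING partner known for stem cell self-renewal, was 2.11-fold higher at a low level, with 14 to 19 counts in siControl and 21 to 29 in siNPM1c. Its call was lost under library sizes alone (0.61, adjusted p 0.0541 by edgeR).

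Among 20 tested subunits of the variant forms of PRC1 (RYBP or YAF2 in place of a CBX reader), 3 rose and 8 fell. Their median was -0.07, against -0.54 with library sizes alone, and 55% were called, beside 42.7% of all genes tested. CBX3, a heterochromatin protein found in the PCGF6 form, fell from 13.4 ± 0.612 to 7.58 ± 0.541 CPM (SD, n = 3). MGA, the DNA-binding scaffold of that form, fell by 0.37 (SE 0.07), and the deacetylase genes HDAC1 and HDAC2 fell to log2 values of -0.33 ± 0.06 and -0.44 ± 0.11 (SE). The HDAC2 call was lost with the GC correction (-0.25, adjusted p 0.0547 by edgeR). FBRS and FBRSL1, of the PCGF3 and PCGF5 forms, both rose by 0.29 log2 (SE 0.04 and 0.05) and were both -0.18 under library sizes alone. The alternative subunits RYBP and YAF2, one of which sits in each BCOR complex, had opposite signs. RYBP was lower (3.11 ± 0.651 against 4.25 ± 0.207 CPM, -0.41 ± 0.16 log2, SE, adjusted p 0.0323 by edgeR) and YAF2 higher (9.51 ± 0.407 against 7.99 ± 0.106 CPM, 0.25 ± 0.10 log2, adjusted p 0.0450, and -0.22 under library sizes alone). The RYBP call was lost without siControl replicate 1 (-0.41), siControl replicate 3 (-0.37), siNPM1c replicate 1 (-0.36) or siNPM1c replicate 3 (-0.28), and with the GC correction (-0.21, adjusted p 0.326). It was lost in DESeq2 too (adjusted p 0.109). Without siNPM1c replicate 2 the RYBP value was -0.62 and stayed called. The YAF2 call was lost without any 1 of the 3 siControl libraries (0.24 to 0.26) and without siNPM1c replicate 1 (0.23) or siNPM1c replicate 2 (0.25). It was also lost with upper-quartile factors (adjusted p 0.0622), with no filter beyond 1 count (0.120) and in DESeq2 (0.146).

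Of 10 tested partners and recruiters of BCOR, 6 rose and 2 fell, with a median of 0.24, against -0.23 with library sizes alone. This is 80% called, beside 42.7% of all genes tested. The genes of this list were chosen with earlier results of these data known, and the difference in share was not tested. BCL6, the transcriptional repressor for which BCOR is named, rose from 3.94 ± 0.760 to 7.64 ± 0.551 CPM (SD, n = 3), a 1.90-fold increase with separate groups. IRF8, a monocyte lineage factor, rose 1.64-fold. KDM2A, the paralogue of KDM2B that also binds CG-rich DNA, rose from 88.6 ± 1.14 to 121 ± 0.775 CPM (0.45 ± 0.03 log2, SE, but -0.01 with library sizes alone). Of the ubiquitin-related subunits of the BCOR complex, USP7 rose by 0.28 ± 0.07 log2 (SE), which became -0.19 under library sizes alone, and SKP1 fell by 0.39 (SE 0.10). The SKP1 call was lost with the GC correction (-0.21, adjusted p 0.0616 by edgeR). Among 10 tested genes of PR-DUB, the complex that removes the ubiquitin placed by PRC1, 3 rose and 1 fell (40% called). The median of these PR-DUB genes was 0.02, against -0.45 with library sizes alone. The PR-DUB glycosyltransferase gene OGT fell from 31.7 ± 1.05 to 23.5 ± 0.374 CPM. MBD6 rose by 0.41 ± 0.07 log2 and FOXK1 by 0.12 ± 0.03, values of -0.06 and -0.35 under library sizes alone. The FOXK1 call was also lost with the GC correction (0.05, adjusted p 0.205 by edgeR).

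**Figure D4:**
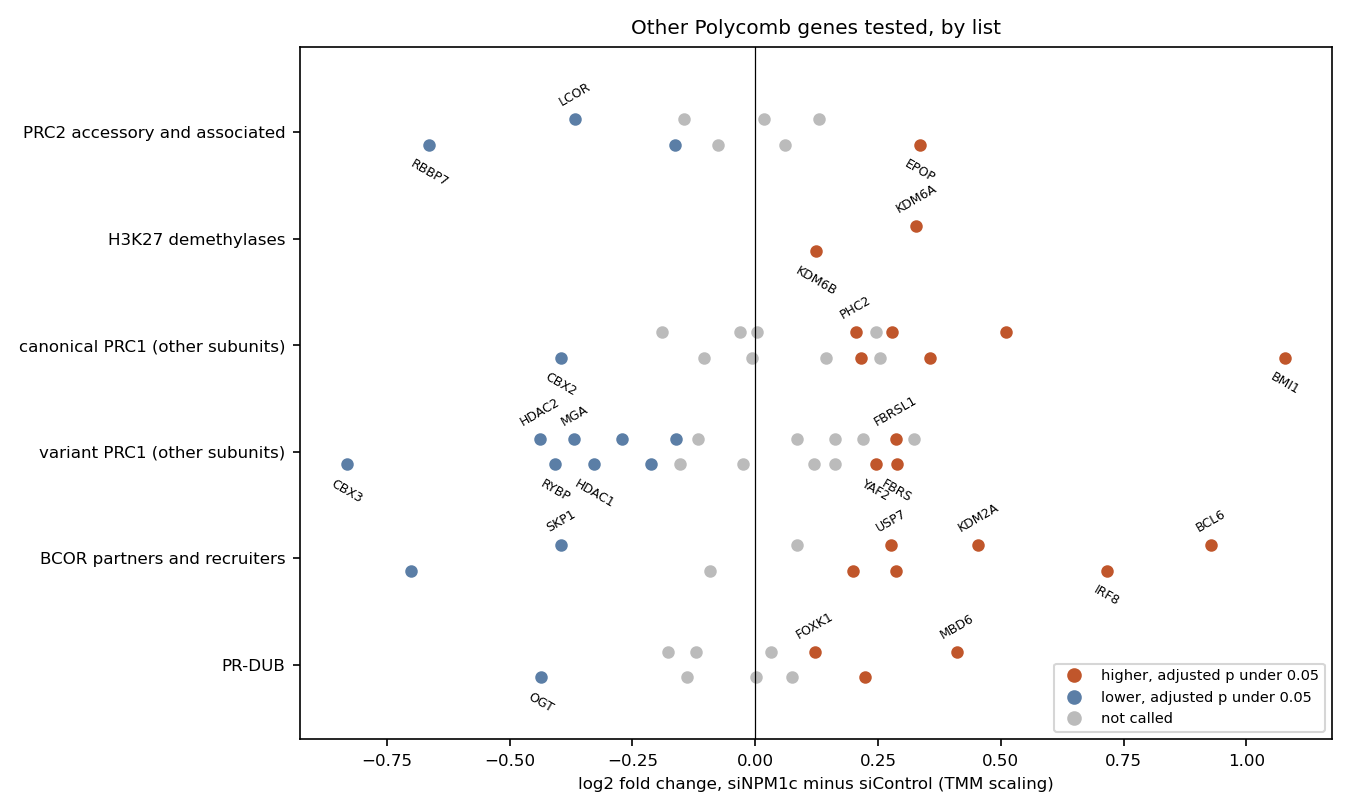
Log2 fold change under TMM scaling (x axis) of the 66 tested genes of the 6 Polycomb lists, one row per list with points offset for legibility, orange for called higher, blue for called lower and grey for not called. Names are given for the genes described in the text other than RING1, and 21 genes are orange and 15 blue.

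Genes of S phase, several of which share E2F control with EZH2, were taken as a list of 30, all tested. Of these 0 rose and 15 fell, with a median of -0.20, against -0.67 with library sizes alone. The calls are 50% of the list, beside 42.7% of all genes tested (21.3% higher, 21.4% lower). PCNA fell by 0.92 (SE 0.13), E2F8 by 0.64 (SE 0.10) and MCM6 by 0.41 (SE 0.07) on the log2 scale, beside 0.17 ± 0.12 for EZH2. Among 30 textbook Polycomb targets outside the HOX clusters only 11 had enough counts to be tested. Of these 4 rose and 2 fell, with a median of 0.18, against -0.29 with library sizes alone. The 6 calls are 54.5% of the 11 tested, beside the same 42.7% of all genes tested. CDKN2A, the locus of the p16 and ARF tumour suppressors and a classical PRC2 target, rose from 6.04 ± 1.38 to 14.8 ± 1.33 CPM (SD, n = 3), 2.50-fold. OLIG2, a neural transcription factor gene, rose 2.30-fold, from 1.503 ± 0.435 to 3.42 ± 0.849 CPM, and the homeobox gene LHX2 fell 1.67-fold from 89.5 ± 2.62 to 53.9 ± 2.40 CPM. Histone marks were not measured in these libraries.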

How the data were processed

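RNA sequencing counts of 6 libraries (3 siControl, 3 siNPM1c) were analysed. The authors deposited unnormalized counts under Entrez identifiers. Tools named, per the submitters' processing notes, are STAR 2.7.5a, cutadapt 2.6, CASAVA 1.8 and DESeq2 1.34.0, beside the builds hg38 and mm10. The sources used here do not give the counter, its annotation, its strand setting or its handling of shared reads. Columns were matched to samples by the column names in the labels, and 28261 of 28307 identifiers to RefSeq symbols (GRCh38.p14).

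Counts were tested in R 4.3.3 with edgeR 4.0.16 (filterByExpr, TMM, glmQLFit with robust = TRUE, two-sided glmQLFTest, Benjamini-Hochberg). SE is the absolute log2 fold change over the square root of F. GC content is the median over GENCODE 29 transcripts (97.1% of genes tested). On simulated counts of siNPM1c against siControl (12852 genes) recovery was 42% at a 1.25-fold change, 88% at 1.5-fold and 93.9% at 2-fold. Every simulated gene had the same dispersion (coefficient of variation 2.17%), and 49 or 50 genes were changed per fold. In the data 5522 genes were called and dispersion differs between genes, so these recoveries need not hold there. Alternatives used DESeq2 1.42.0 and limma 3.58.1 among 20 in all.

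The members and all gene lists were chosen with earlier results of these data known. All members were named whatever their p. From other lists at least the 3 called genes with the smallest p were named (at most 3 for S phase genes and targets), and for BCOR and EZH2 the 3 genes of most similar pattern. Some items that the rule gives are not reported here. No library was a copy of another (chi-square per degree of freedom at least 1.46 within groups).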

Additional observations from a re-analysis of the deposited data

How the results depend on the processing

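The calls of BCOR, SUZ12, JARID2 and KDM2B held, with their direction, in 19 of 20 alternatives, the exception being library sizes alone, where only those of BCOR and SUZ12 kept their direction. There the members called numbered 9 in all, 0 higher and 9 lower, and the genes called 9758 in all, 505 higher and 9253 lower. A test against a 1.2-fold change (glmTreat) called 2322 genes, 1209 higher and 1113 lower, and the same 4 members. That stricter threshold left KDM6A, KDM6B, EPOP, LCOR, CBX2, PHC2, FBRS, FBRSL1, MGA, HDAC1, HDAC2, RYBP, YAF2, USP7, SKP1, FOXK1 and SUZ12P1 uncalled. Library sizes alone turned EZH2 (-0.30), JARID2 (-0.12), KDM2B (-0.053), EPOP (-0.13), KDM6A (-0.14), KDM6B (-0.34), PHC2 (-0.27), FBRS (-0.18), FBRSL1 (-0.18), YAF2 (-0.22), KDM2A (-0.015), USP7 (-0.19), MBD6 (-0.060), FOXK1 (-0.35) and SUZ12P1 (-0.17). These turns are not particular to the genes named, because leaving out TMM lowered every gene by about the same amount. The median over all genes tested went from -0.01 to -0.48. As a ratio of mean CPM by library size, siNPM1c over siControl, JARID2 was 0.919 and KDM2B 0.964. With the GC correction EZH1 changed sign from -0.04 to 0.0086 and EED from -0.20 to 0.085, and neither was called in either fit. Values near 0 also changed sign when 1 library was left out, for EZH1 (-0.099 to 0.057, above 0 without siControl replicate 2 or siNPM1c replicate 1) and BCORL1 (-0.067 to 0.031, above 0 without siNPM1c replicate 3). The cause of the sign changes of EZH1, EED and BCORL1 was not tested.

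Replicate numbers did not pair the libraries (correlations of deviations 0.0193, -0.00266 and -0.00408 for numbers 1, 2 and 3), and only number 1 correlated best with its own. With the replicate number as a block 4 members and 5586 genes were called, against 5522. The block together with the GC correction, added after the data had been seen, gave EZH1 0.0067 and EED 0.083 and called 5 members. With the strict filter (5 CPM in 3 libraries) EED, PCGF1 and RNF2 were not tested. RNF2, PCGF1 and EED rest on 17 to 116 counts a library and had the largest standard errors of the 10 members (0.25, 0.18 and 0.16 log2).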

Other observations

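As a description of pattern, the log2 CPM of 7391 genes averaging 5 CPM or more was compared with those of BCOR and EZH2 over the 6 libraries, which share their groups and depth. The 3 genes most like BCOR were NRIP1, a nuclear receptor corepressor gene (Pearson r 0.999, log2 fold change -0.44 ± 0.11, SE), the fatty acid desaturase gene FADS2 (0.999, -0.23 ± 0.02) and the chaperone gene HSPA4L (0.998, -0.27 ± 0.10). A Pearson r of at least 0.95 with BCOR was reached by 516 genes, so such likeness was common in these libraries. For EZH2 it was reached by 14, the first being the vesicle protein gene VAMP2 (r 0.988), TENT5A (0.988) and the helicase gene MCM9 (0.985), none of which passed the test.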
